A study of Mus musculus with 6 samples.

Results

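The miR-155 host locus and its neighbours on mouse chromosome 16 were followed in sorted bone marrow cells with and without miR-155. The members are 10 genes chosen by symbol, out of 22475 in the deposited table: the host transcript Gm26667, the hairpin row Mir155, and Mrpl39, Jam2, Gabpa, App, Ltn1, Usp16, Urb1 and Itsn1. They were named with the difference between the groups already known, so their values are given as a description without a test. The cells were Lin- cKit+ Sca1+, a gate that holds haematopoietic stem and early progenitor cells. Both groups carried FLT3-ITD on each allele, an internal duplication that leaves the receptor kinase FLT3 active. Controls (FLT3-ITD) carried wild type miR-155, and the other group (FLT3-ITD miR-155-/-, below KO) was homozygous for its deletion. Each group had 3 libraries, each of RNA pooled from 3 mice, so spreads are between pools. Age, background strain and the bases removed by the deletion are not given in the sources used here. In bulk RNA, fewer cells of a type and less RNA per cell cannot be told apart.

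A microRNA is cut from a hairpin within a longer transcript, is loaded into an Argonaute protein, and represses mRNAs that pair with its seed. The hairpin of miR-155 lies in an exon of a noncoding RNA first known as BIC, which is induced in activated lymphocytes and myeloid cells and is raised in several blood cancers. Around it lie housekeeping and signalling genes in a stretch of mouse chromosome 16 whose counterpart is on human chromosome 21.

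The deleted product is shown first because every other value here is measured around it. RefSeq (GRCm38.p6) gives the hairpin on the plus strand at chr16:84714140-84714204 (65 bases). Capitals mark the seed, bases 2 to 8, in the mature forms, and the 2 mature arms in the hairpin, all written 5′ to 3′.
mmu-miR-155-5p: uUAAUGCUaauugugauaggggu
mmu-miR-155-3p: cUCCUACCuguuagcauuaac
hairpin: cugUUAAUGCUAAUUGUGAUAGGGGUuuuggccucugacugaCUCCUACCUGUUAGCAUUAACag
The 5p arm (23 bases) is the one named for most known targets, and the seeds of the arms, UAAUGCU and UCCUACC, differ. GENCODE M21 names the host gene Mir155hg (ENSMUSG00000097418, plus strand, chromosome 16, 84703167 to 84715245, GRCm38). It has 2 transcripts, with separate first exons of 169 and 71 bases and a shared exon 2 of 1193 bases. The hairpin starts 87 bases into exon 2 and leaves 1041 bases of that exon after it. The deposited FPKM (counts scaled by gene length and library total) return the gene length used by the authors, which was 1261 bases for Gm26667. The transcript with the 71-base first exon has 1264 bases, and all annotated exons together have 1433.

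Counts of the host transcript were lower in the KO libraries. Gm26667 had 33, 48 and 36 counts in control libraries 1, 2 and 3, and 4, 14 and 4 counts in KO libraries 1, 2 and 3. Every KO count lay below every control count. Their exact Poisson 95% intervals, which cover counting error only, ran from 22.7 to 63.6 over the controls. For the KO libraries they ran from 1.09 to 10.2 at 4 counts and from 7.65 to 23.5 at 14 counts, so KO replicate 2 reached above the lowest control bound. In CPM (counts scaled to the library total after TMM normalization) the means were 4.49 ± 0.965 in controls and 0.984 ± 0.699 in the KO (SD, n = 3 each), and the KO kept 21.9% of the control level. The fitted log2 fold change, KO over control, was -2.14 ± 0.46 (standard error, SE). It was -2.92 without KO replicate 2, which carried 14 of the 22 KO counts. The hairpin row Mir155 had 2, 1 and 0 counts in controls and 0 in each KO library. The same interval reaches 3.69 counts at a count of 0, so no fold is given. The detection floor was set at 3 counts, or 0.384 to 0.459 CPM in the KO libraries. The hairpin lies wholly inside the host exon, and how shared reads were assigned is not given in the sources used here. That exon has 1193 bases, and the length used for Gm26667 was 1261 bases. Since the bases removed by the deletion are not given, loss of counted bases and less host RNA cannot be told apart.

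**Figure D1:**
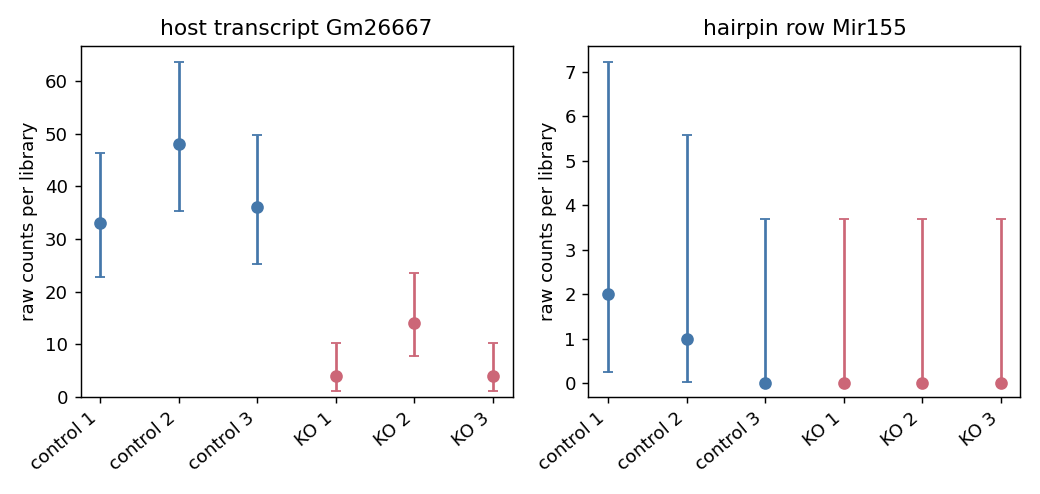
Raw counts per library (vertical axes, linear) of the host transcript Gm26667 and of the hairpin row Mir155, with exact Poisson 95% intervals as bars. The 3 controls (blue) had 33 to 48 host counts and the 3 KO libraries (red) 4 to 14, while the hairpin never exceeded 2 counts.

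Marker genes of other cell types also differed between the groups. The 10 measured mature B and plasma cell markers summed to 3036 to 4388 CPM in controls and 669 to 1730 CPM in the KO, without overlap. All 8 of them that were tested had negative fold changes. In edgeR 0 of the 8 passed an adjusted p of 0.05 (0.159% of all genes did), and 4 passed with the replicate number as a block (1.36% of all genes). Immunoglobulin genes took 2.43% to 3.72% of control counts and 0.501% to 1.53% of KO counts. The 11 T and NK cell markers summed to 135 to 144 against 101 to 128 CPM, also without overlap. Of the 10 tested, 9 had negative fold changes, 0 passed in edgeR and 1 passed with the block. Cd2 was lower in every KO library, while Cd3e, Cd4 and Cd8a each overlapped between the groups. The 8 mature neutrophil markers summed to 582 to 728 against 326 to 499.96 CPM, again without overlap. All 7 tested were negative, and 0 passed in either fit. Separate groups occurred in 8.22% of all genes tested. No marker in these lists was at 0 in all libraries. The macrophage, dendritic cell and erythroid sums overlapped between groups. So did the 10 gate markers, at 1828 to 2503 CPM in controls and 1812 to 2389 CPM in the KO, with Kit at 241 to 386 and Ly6a (Sca1) at 105 to 127 CPM over all libraries. KO replicate 2, highest of the KO libraries in host counts, had the lowest KO sum of B and plasma cell markers (669 CPM, against 1114 and 1730 CPM). It had the highest KO sums of T and NK cell markers (128 CPM, against 101 and 120 CPM) and of neutrophil markers (499.96 CPM, against 351 and 326 CPM). The part of other cell types in the difference of the host transcript was not tested.

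Among 12519 genes whose mean log2 CPM reached 1 or more, the 5 profiles most like that of Gm26667 over the 6 libraries were Ighv5-12, Cd2, Ighv1-59, Hid1 and Ighv1-58. Likeness was the root mean square difference of log2 CPM after each gene was centred on its mean. It ran from 0.555 for Ighv5-12 to 0.610 for Ighv1-58, against a median of 1.14 over all genes. The set holds 3 immunoglobulin heavy chain V segments, which may share reads with similar V segments. It also holds Cd2, a lymphocyte adhesion receptor that is in the T and NK cell list too. Cd2 had 50, 32 and 43 counts in controls and 10, 22 and 11 in the KO, so it shared with Gm26667 the higher value of KO replicate 2. Hid1 (20, 71 and 48 KO counts) and Ighv1-59 (9, 17 and 3) shared it too. Ighv5-12 (15, 16 and 5) and Ighv1-58 (15, 16 and 14) had nearly equal counts in KO replicates 1 and 2. All libraries and their depths are shared between these profiles. The difference between the groups is also part of each profile, so the measure favours genes with a large fall in the KO. The log2 fold changes of the 5 ran from -1.04 (Hid1) to -2.78 (Ighv1-58). Likeness within the groups was not measured.

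Mrpl39, the nearest gene, was also lower in every KO library. It encodes a protein of the large subunit of the mitochondrial ribosome (minus strand, chromosome 16, 84717576 to 84735742) and ends 2330 bases from the end of the host gene, facing it tail to tail. It had 48.2, 45.6 and 40.6 CPM in controls and 32.9, 32.0 and 30.3 CPM in the KO, and the groups did not overlap. The means were 44.8 ± 3.88 and 31.7 ± 1.33 CPM (SD, n = 3). This gave -0.50 ± 0.10 (SE) as the log2 fold change, and the KO mean was 29.3% below the control mean.

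Jam2, an adhesion molecule of cell junctions that lies 59.9 kb from the hairpin, was close to the detection floor. It had 1, 6 and 3 counts in controls and 1, 3 and 5 in the KO, too few to compare. Gabpa, 121 kb away, encodes the DNA-binding subunit of the ETS factor GABP, which drives many mitochondrial and housekeeping promoters and is needed by blood stem cells. Its levels were 147, 135 and 136 CPM in controls and 139, 138 and 144 CPM in the KO. The groups overlapped, with a log2 fold change of 0.01 ± 0.07 (SE). Gabpa overlaps Atp5j, a subunit gene of ATP synthase on the other strand, by 701 bases at their start sites. Atp5j had 47.2 ± 2.57 CPM in controls and 44.6 ± 1.55 CPM in the KO (SD, n = 3), and its log2 fold change was -0.08 ± 0.09 (SE).

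App encodes the amyloid precursor protein, a membrane protein cut by secretases, and lies 235 kb from the hairpin. It varied more between libraries than between groups. App had 80.4, 49.7 and 60.3 CPM in control libraries 1 to 3 and 82.7, 61.0 and 67.8 CPM in KO libraries 1 to 3. The log2 fold change was 0.15 ± 0.19 (SE), and leaving out 1 library moved it from 0.0018 to 0.36. Both libraries of number 1 were highest, and the summed macrophage, erythroid and dendritic cell markers were highest in the same libraries. The 10 macrophage markers summed to 944, 195 and 224 CPM in controls and 730, 251 and 343 CPM in the KO. The 6 erythroid markers summed to 48.4 and 34.7 CPM in the libraries of number 1 and to 4.35 to 8.25 CPM in the others. The 7 dendritic cell markers summed to 1892 and 3570 CPM in the libraries of number 1 and to 1257 to 1719 CPM in the others. In App and in the macrophage sum control replicate 2 came lowest, followed by control replicate 3, KO replicate 2 and KO replicate 3. The libraries of number 1 changed places, with App highest in KO replicate 1 and the macrophage sum in control replicate 1. The dendritic cell sum had another order, with KO replicate 3 lowest. The part of RNA from these cell types in the App level was not tested.

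**Figure D2:**
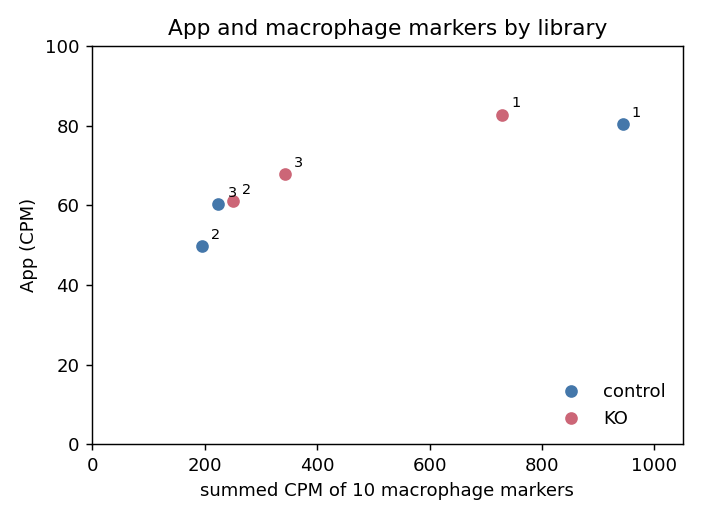
App level (vertical axis, CPM) against the summed CPM of 10 macrophage markers (horizontal axis) in each of the 6 libraries, numbered by replicate, with controls blue and KO red. The libraries of number 1 had 80.4 and 82.7 CPM of App beside marker sums of 944 and 730 CPM, and the other 4 had at most 67.8 CPM of App.

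Ltn1 and Usp16 lie close together, 2.66 and 2.74 Mb from the hairpin. Ltn1 (Listerin) is the ubiquitin ligase that marks unfinished chains on stalled ribosomes. It had 149, 156 and 143 CPM in controls and 163, 153 and 153 CPM in the KO, with overlapping groups and a log2 fold change of 0.06 ± 0.07 (SE). Usp16 removes ubiquitin from histone H2A and limits self-renewal of stem cells when its dose is raised. It had 75.1, 71.6 and 61.7 CPM in controls and 68.5, 60.2 and 71.7 CPM in the KO, a log2 fold change of -0.06 ± 0.11 (SE), again with overlap. Its last 192 bases overlap the end of Cct8, a chaperonin subunit on the other strand with 408 ± 54.5 CPM in controls and 405 ± 6.33 in the KO (SD, n = 3). The use of strand in counting is not given here, so reads from the shared bases of Usp16 and Cct8 or Gabpa and Atp5j cannot be told apart.

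The 2 most distant members differed in opposite directions. Urb1, a nucleolar protein of early 60S ribosome assembly 6.04 Mb away, had 65.9, 57.7 and 60.3 CPM in controls and 93.4, 72.5 and 83.9 CPM in the KO. Each KO value lay above each control value, and the log2 fold change was 0.44 ± 0.11 (SE). Itsn1 (intersectin 1), an endocytic scaffold that joins clathrin coats to actin regulators, lies 7.02 Mb away. It had 55.5, 72.5 and 54.5 CPM in controls and 42.5, 43.6 and 37.4 CPM in the KO, all KO values below all controls. The means were 60.8 ± 10.1 and 41.2 ± 3.30 CPM (SD, n = 3), and the fitted log2 fold change was -0.56 ± 0.14 (SE). In the annotation a second Atp5o model runs across all of Itsn1 on the other strand, and it has no row of its own here.

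**Figure D3:**
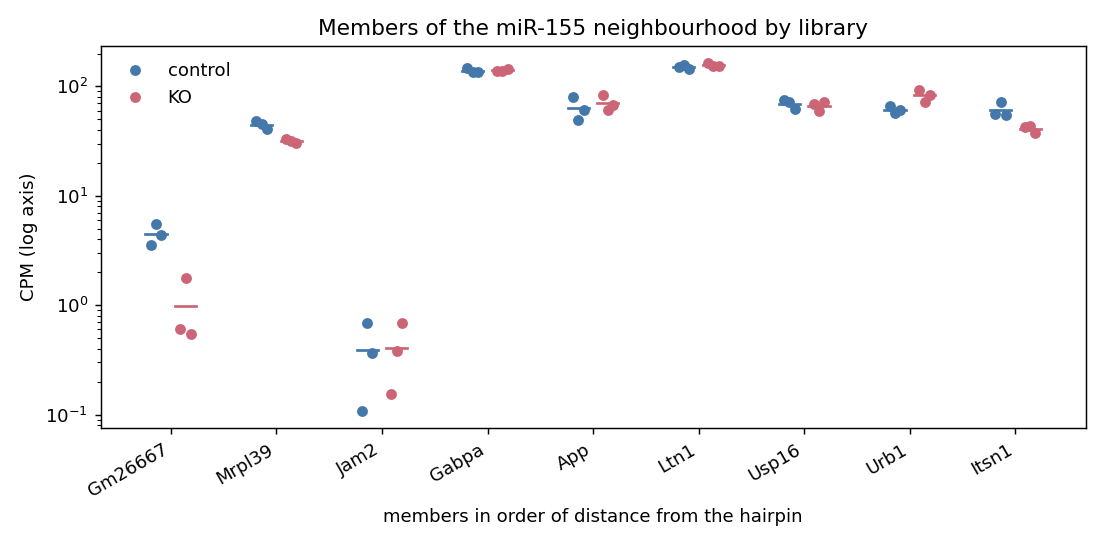
CPM per library (vertical axis, log scale) of 9 members in order of distance from the hairpin, with controls blue, KO red and a bar at each group mean. Groups are separate for Gm26667, Mrpl39, Urb1 and Itsn1 and overlap for the other 5; Mir155 is left out because most of its values are 0.

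The start regions of the 4 members with separated groups are shown because these are the members the fold changes turn on. RefSeq gives 8 of the 10 members a 300-base window, from 250 bases before to 50 after the start (GRCm38.p6, written on the gene's strand; for the host gene, the start of the transcript with the 71-base first exon). Both strands were searched for CCGGAAG (the core bound by GABP and other ETS factors), TGANTCA (AP-1), AAGATGGC (YY1) and the palindromic NRF1 core (the capitals in the Mrpl39 window), which do not overlap each other in these windows. Matches are in capitals.
Mir155hg, plus strand, chr16:84712773-84713072: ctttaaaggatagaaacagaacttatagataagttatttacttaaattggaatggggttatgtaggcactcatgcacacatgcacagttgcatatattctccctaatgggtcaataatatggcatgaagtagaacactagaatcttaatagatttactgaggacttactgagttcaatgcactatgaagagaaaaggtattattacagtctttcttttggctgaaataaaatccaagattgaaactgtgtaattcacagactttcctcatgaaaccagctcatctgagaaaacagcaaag
Mrpl39, minus strand, chr16:84735195-84735494: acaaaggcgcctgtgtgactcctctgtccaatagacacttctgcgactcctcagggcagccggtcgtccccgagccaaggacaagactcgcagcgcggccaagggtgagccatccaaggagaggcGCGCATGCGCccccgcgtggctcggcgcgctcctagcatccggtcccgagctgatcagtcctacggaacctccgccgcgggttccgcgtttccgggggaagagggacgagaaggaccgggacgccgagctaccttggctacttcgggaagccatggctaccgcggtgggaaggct
Urb1, minus strand, chr16:90810364-90810663: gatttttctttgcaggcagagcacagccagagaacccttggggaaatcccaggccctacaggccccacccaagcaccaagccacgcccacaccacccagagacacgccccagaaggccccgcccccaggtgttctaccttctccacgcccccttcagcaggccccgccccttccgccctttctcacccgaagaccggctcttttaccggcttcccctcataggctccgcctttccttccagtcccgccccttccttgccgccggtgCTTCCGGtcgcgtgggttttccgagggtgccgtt
Itsn1, plus strand, chr16:91729121-91729420: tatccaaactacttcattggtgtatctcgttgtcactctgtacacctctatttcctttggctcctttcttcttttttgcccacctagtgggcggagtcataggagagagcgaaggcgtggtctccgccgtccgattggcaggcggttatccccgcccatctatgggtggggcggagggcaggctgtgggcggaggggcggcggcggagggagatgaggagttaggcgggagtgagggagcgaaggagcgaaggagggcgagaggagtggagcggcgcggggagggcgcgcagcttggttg
The Mrpl39 window holds an NRF1 match 125 bases before the start, found in 0.971% of the 32851 windows in the table. The Urb1 window holds an ETS match in reverse orientation, 16 bases after the start. ETS matches occur in 8.86% of all windows, and also in those of Gabpa and Usp16. YY1 matches occur in 2.75% of windows and, among the members, in that of Gabpa. No listed motif was found in the windows of the host gene, Itsn1, App or Ltn1, where AP-1 matches occur in 7.81% of all windows.

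Differences between libraries of equal number show the sizes by library. For the 4 members with separate groups, any pairing of the libraries gives a single direction, so the sign is fixed by their choice. In log2 CPM, KO minus control, Gm26667 differed by -2.15, -1.49 and -2.53 for numbers 1, 2 and 3. Mrpl39 differed by -0.55, -0.51 and -0.42, Itsn1 by -0.38, -0.73 and -0.54, and Urb1 by 0.50, 0.33 and 0.47. App was positive in all 3 (0.04, 0.29 and 0.17), while Gabpa, Ltn1 and Usp16 had both signs.

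**Figure D4:**
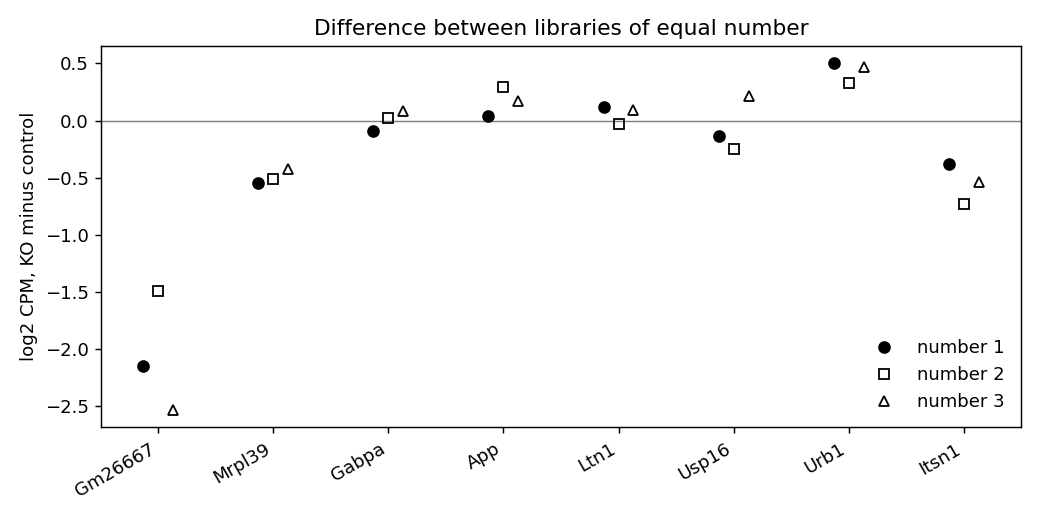
Difference in log2 CPM (vertical axis, KO minus control) between libraries of equal replicate number for the 8 members that passed the low-count filter, in order of distance. Gm26667, Mrpl39 and Itsn1 lie below 0 in all 3 numbers, Urb1 and App above 0, and Gabpa, Ltn1 and Usp16 on both sides.

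Of the 10 members, 8 passed the filter on low counts, and Mir155 and Jam2 did not. In the edgeR fit on the group alone, 0 of the 8 passed an adjusted p of 0.05, and 4 had an unadjusted p under 0.05. Over all 13217 genes tested 0.159% passed (0.0151% higher and 0.144% lower in the KO) and 3.9% had an unadjusted p under 0.05. With the replicate number as a block, 4 of the 8 passed (Gm26667, Mrpl39 and Itsn1 lower, Urb1 higher), against 1.36% of all genes (1.04% lower and 0.318% higher). Their blocked log2 fold changes were -2.20, -0.50, -0.56 and 0.44. In DESeq2 1 member passed, Gm26667, against 0.923% of genes (0.867% lower and 0.0564% higher). By the adjusted p of the authors' deposited table, Gm26667 was again the 1 member that passed, against 0.639% of the genes there (0.597% lower). The authors' deposited table gave it a log2 fold change of -2.17. Groups that did not overlap in CPM occurred in 3 members that were lower (4.79% of all genes) and 1 that was higher (3.43%). Nothing is read from these shares, since the same contrast chose the members.

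A list of all genes by position placed the members among their neighbours, with a width chosen when earlier results of these data were known. Within 8 Mb of the hairpin the table has 78 genes, of which 47 were tested. Their median log2 fold change was 0.03, against 0.00 over all genes, and the median size regardless of sign was 0.10 in both. In edgeR 0 of the 47 passed and 4 had an unadjusted p under 0.05, and 1 passed in DESeq2. With the block 4 passed, the 4 members above. Groups were separate in 4 of the 47, or 8.51%, against 8.22% over all genes and 9.26% in the rest of chromosome 16. None of the 39 tested neighbours outside the member list had separate groups or an unadjusted p under 0.05. These include the receptor genes Ifnar1 (0.24 ± 0.12), Ifnar2 (0.12 ± 0.11), Il10rb (0.10 ± 0.13) and Ifngr2 (0.13 ± 0.19, log2 fold change ± SE), and Runx1, a master regulator of blood stem cells (0.03 ± 0.10).

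By distance, separate groups were found in 2 of 5 tested genes under 1 Mb (Gm26667 and Mrpl39), in 0 of 8 from 1 to 4 Mb, and in 2 of 34 from 4 to 8 Mb (Urb1 and Itsn1), against 8.22% of all genes. Without the members, which this contrast chose, the counts were 0 of 1, 0 of 6 and 0 of 32. The locus stands at the edge of a gap: the nearest tested gene on the other side is Ncam2, a neural adhesion molecule 3.09 Mb away, with a log2 fold change of -0.46 ± 0.55 (SE). Ncam2 was low in both libraries of number 1, with 88 and 54 counts, where the other 4 libraries had 157 to 295. A narrower window of 5 Mb held 14 tested genes, 2 of them with separate groups (14.3%), and one of 15 Mb held 79, with 8 (10.1%), both counted with the members and read against the same 8.22%.

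**Figure D5:**
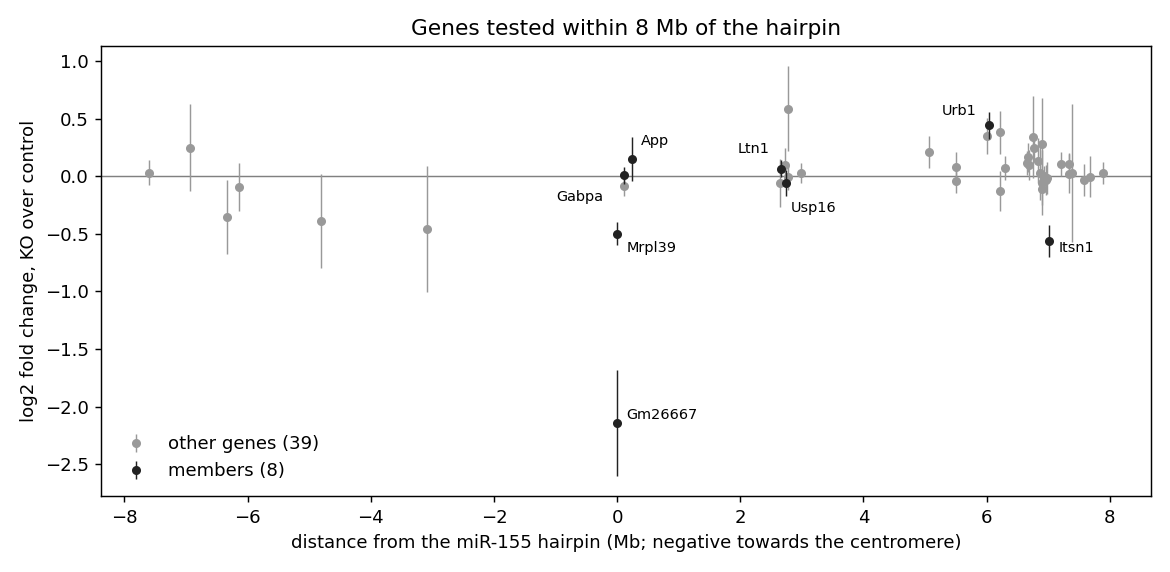
Log2 fold change, KO over control (vertical axis, bars are SE), of the 47 genes tested within 8 Mb against signed distance from the hairpin in Mb (horizontal axis), with the 8 members in black. Gm26667 lies at -2.14 and its neighbour Mrpl39 at -0.50, and only 6 genes were tested on the centromere side.

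Partners of the members were taken from lists set by known function. Over all 9 lists 136 genes were tested. In edgeR 0 passed, 1 had an unadjusted p under 0.05, and 0 passed in DESeq2. The 47 other Mrpl genes of the mitochondrial large subunit had a median log2 fold change of -0.02, from -0.32 to 0.22, so the value of Mrpl39 (-0.50) lay outside their range. The 2 with the smallest p were Mrpl35 (-0.21) and Mrpl57 (-0.16). The 12 genes of 60S assembly had a median of 0.02 and a highest value of 0.25 (Ddx51, a helicase), below that of Urb1 (0.44). The 13 tested endocytic scaffolds ran from -0.12 to 0.38 with a median of 0.07. The lowest lay above Itsn1 (-0.56). Mrpl39, Urb1 and Itsn1 were named with their difference known, so their place outside these ranges is only described. Synj1 (0.38), a lipid phosphatase in endocytosis, and Dnm2 (0.11), the dynamin of most cells, had the smallest p there.

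Among 14 GABP subunits and ETS factors the median was -0.02, and Ets1, a lymphoid ETS factor, passed with the block only. It had 48.5, 59.9 and 59.6 CPM in controls and 32.9, 45.1 and 40.4 CPM in the KO. Its log2 fold change was -0.50 ± 0.15 (SE, edgeR adjusted p = 0.654), and -0.51 with the block (adjusted p = 0.0381, 1 of 14 genes against 1.36% of all). Regulators reported at the host gene (13 tested: AP-1, NF-kB, Myb and Stat5 genes) had a median of 0.11. Of the 13, 9 were positive, against 6638 of all 13217 genes tested, and 0 had an unadjusted p under 0.05 in edgeR. Their part in the level of the host transcript was not tested. Relb (0.34) and Fos (0.21) had the smallest p among them.

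The other lists had medians of -0.28 for junctional adhesion partners (5 tested of 8), 0.00 for the APP family and secretases (11 tested), -0.03 for ribosome quality control (10 tested) and -0.09 for H2A ubiquitination (11 tested). All 5 tested adhesion partners were negative, against 6579 of all 13217 genes tested, and 0 had an unadjusted p under 0.05 in edgeR. Among them F11r had -0.29 ± 0.45 (SE). The smallest p belonged to Aplp2 (-0.16) and Apbb1 (-0.49) in the APP list and to Vcp (-0.06) and Tcf25 (-0.07) in the quality control list. In the H2A list Asxl1 (-0.13), a partner of the H2A deubiquitinase Bap1, and Mysm1 (-0.14) had it. Groups were separate in 3 lower and 1 higher of the 47 mitochondrial ribosome genes, in 1 lower and 1 higher of the 11 H2A genes, in 1 lower of the 14 ETS genes and in 1 higher of the 13 endocytic genes. The remaining lists had 0, and the share over all genes was 8.22%.

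On the length-corrected scale of the deposited FPKM, the members spanned a wide range in controls. Gabpa led with 24.5 ± 0.677, followed by App (20.2 ± 4.53), Ltn1 (19.4 ± 1.01) and Mrpl39 (17.7 ± 1.33; SD, n = 3 each). The control values of Gabpa overlapped with those of App, and those of App with Ltn1, while Ltn1 lay clear of Mrpl39. Urb1 (7.49 ± 0.350) and Usp16 (7.35 ± 0.667) overlapped. Gm26667 followed at 3.57 ± 0.833 and overlapped with Itsn1 (2.70 ± 0.491). In the KO it stood at 0.789 ± 0.582, below Itsn1 at 1.83 ± 0.154. Mir155 (1.68 ± 1.63) rests on 3 counts over 65 bases, and Jam2 (0.0666 ± 0.0506) came last. The length behind App was 3128 bases, against 12996 in all its annotated exons, so its FPKM depends on which exons were counted.

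The 6 libraries held 6843129 to 9443615 counts, of which the 10 members took 0.0593%. Within each group the libraries were not repeat counts of one sample (chi-square per degree of freedom of at least 7.29).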

How the data were processed

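RNA of Lin- cKit+ Sca1+ bone marrow cells was sequenced in 6 libraries (3 pooled mice each). Novoalign 2.08.01, mm10 and DESeq2 1.10.1 are named per the submitters' processing notes. The read counter, annotation and strand setting are not given in the sources used here. Raw counts per gene, FPKM, the authors' log2 fold change and adjusted p-value were deposited by the authors in one table. FPKM equalled counts divided by gene length and library total. Only counts were tested.

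Of 22475 genes, 21966 matched GENCODE M21 (GRCm38, the assembly of mm10) by identifier. Groups came from the titles. edgeR 4.0.16 (R 4.3.3) used TMM, filterByExpr (minimum count 10, total 15) and its quasi-likelihood F test (two-sided) with group as the only term. Benjamini-Hochberg adjustment ran over all 13217 genes at a threshold of 0.05, and SE came from the F statistic. DESeq2 1.42.0 was an alternative. Simulated counts checked the fit. Log2 CPM used a prior count of 2.

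Both groups use numbers 1 to 3, with no label on what a number stands for. Deviations from group means correlated by r = 0.57, 0.53 and 0.22 for numbers 1, 2 and 3, all above the 0.1 set for pairing. Replicate 3 of the controls and 2 of the KO also did (0.13). So the pairing rests on the data.

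The members, partner lists and windows were chosen with earlier results of these data known. Named genes are the members, window genes that passed, nearest and overlapping genes, the 2 of smallest p or those that passed in each partner list, and the 5 profiles most like Gm26667. Ifnar1, Ifnar2, Il10rb, Ifngr2, Runx1, Cyyr1, Cxadr, Rpl21-ps5, 4932438H23Rik, Adamts1 and Adamts5 were chosen after their values were seen. Alternatives were other size factors (RLE), no filter, a minimum count of 20, DESeq2, the block, other windows and leaving out each library. A threshold of 0.1 and leaving out both libraries of number 1 were added after seeing the data. One gene that this rule names is not reported here.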

Additional observations from a re-analysis of the deposited data

How the results depend on the processing

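Over 8 members and 12 alternatives, 86 of 96 fold changes kept their direction and side of the threshold, 5 newly passed and 5 reversed. The reversed values were of members near 0: leaving out 1 library gave -0.0122 to 0.0507 for Gabpa (below 0 without control 2, control 3 or KO library 3: -0.0122, -0.0053 and -0.0110) and -0.129 to 0.0072 for Usp16 (above 0 without control 1 or KO library 2: 0.0043 and 0.0072). The same range was -2.92 to -1.85 for Gm26667, -0.56 to -0.44 for Mrpl39, -0.63 to -0.42 for Itsn1 and 0.35 to 0.53 for Urb1. Without both libraries of number 1 these 4 were -2.05, -0.47, -0.65 and 0.41, and none passed. The members that passed in edgeR went from 0 to 4 with the replicate block and 1 in DESeq2, as did the genes within 8 Mb. The ETS list went from 0 to 1 with the block. The count of members that passed stayed 0 at a threshold of 0.1 and on leaving out any library. Over all genes 21 became 180 with the replicate block, 131 in DESeq2, 97 without a filter and 0 to 27 on leaving out 1 library, each with fewer samples: 0 without control 1 or 3 (where 766 and 358 had an unadjusted p under 0.05), 9 without the second control and 8 without the second KO library. The other causes were not tested. With the block 4 mature B and plasma cell markers and 1 T and NK cell marker also passed, against 0 without it, and no call of the other partner or marker lists or of the other members differed. The window median stayed between -0.034 and 0.089 over all alternatives. At these depths Mir155 and Jam2 could not be compared.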

Other observations

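Within 8 Mb of the hairpin 31 genes were counted too rarely to be tested, with at most 59 counts over the 6 libraries. Raw counts were separate between the groups, and lower in the KO, in Cyyr1, Cxadr, Rpl21-ps5 and 4932438H23Rik. Rpl21-ps5 had 1, 1 and 1 counts in controls against 0, 0 and 0. For 4932438H23Rik they were 3, 3 and 4 against 2, 2 and 1. Cyyr1, a small membrane protein gene 0.707 Mb from the hairpin, had 10, 7 and 9 counts in controls and 1, 2 and 1 in the KO, chosen here after its values were seen. Its direction is that of Gm26667 and Mrpl39. Between those and Cyyr1 lie Jam2, with 10 counts in controls and 9 in the KO, and Atp5j, Gabpa and App. The log2 fold changes of these last were -0.08, 0.01 and 0.15. How often genes counted this rarely have separate counts outside the window was not measured. Cxadr, a junctional adhesion protein 6.35 Mb away, had 15, 9 and 9 against 3, 8 and 5 counts. Adamts5, a matrix protease 1.14 Mb away, had 13 counts in control replicate 1 and 12 in KO replicate 1, against 2 to 5 in the other libraries. Adamts1 beside it had 9 and 8 in the libraries of number 1 and 2 to 6 in the others, so both were highest in the libraries where App and the macrophage markers were highest.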
